A study of Homo sapiens with 21 samples.

Results

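The genes described here are 37 genes of glycolysis, lactate transport and the response to low oxygen, read in MM.1S, an established human multiple myeloma cell line. They were chosen as a list of symbols, with earlier results of these data known. All 37 of 37 listed symbols had a row among the 17691 genes of the deposited TPM table. TPM is a length-scaled share of a library's transcripts. A filter of at least 1 TPM in at least 3 libraries kept 12559 genes and 35 of the members. PFKP, the platelet-type phosphofructokinase, and EGLN3, an oxygen-sensing hydroxylase, did not pass it and lay at or below 0.390 and 0.368 TPM in every library. The study measured mRNA in 21 libraries, 3 in each of 7 groups of wild-type or hairpin-carrying MM.1S cells. The untreated group received no drug, and the drug groups were exposed to pomalidomide (1 µM), with collection at 24 h, at 48 h or at 72 h. Pomalidomide acts through cereblon, a ubiquitin ligase component, by recruiting the transcription factors Ikaros and Aiolos for degradation. The remaining groups received no drug and were a control knockdown, a knockdown of ARID2 (a subunit of the PBAF chromatin remodeller) and a knockdown of Aiolos (the protein of IKZF3), the last pair by lentiviral hairpin for 72 h.

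Several features of the design limit what a contrast means. For the control knockdown, the labels used here state neither which hairpin was used nor for how long. No untreated cells were matched to each drug time, so time in culture and time in drug cannot be told apart. The submitters call the libraries of a group biological replicates and say nothing of separate cultures or days, so the p-values rest on a spread that may be technical. ARID2 read 26.00, 25.4 and 25.4 TPM in the control knockdown and 12.4, 12.2 and 12.1 TPM where ARID2 was targeted. IKZF3 read 83.5, 79.2 and 81.4 TPM under the control hairpin and 127, 121 and 141 TPM in the samples labelled Aiolos knockdown, a difference of 0.67 ± 0.05 (log2, SE; adjusted p = 1.92e-10). The targeted transcript was thus higher where the label says it was knocked down, and these are called the libraries labelled Aiolos knockdown throughout. That rise was not particular to them: IKZF3 also read 118, 119 and 122 TPM in the ARID2 knockdown (0.55 ± 0.05). Untreated cells read 98.0, 96.7 and 94.5 TPM, above the control hairpin, and every drug library lay above the untreated ones. In bulk RNA, fewer cells of one kind and less RNA per cell cannot be told apart.

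Glycolysis takes up glucose through membrane transporters, traps it by phosphorylation, splits it and oxidises it to pyruvate. Pyruvate is then reduced to lactate by lactate dehydrogenase and exported by monocarboxylate transporters, or enters mitochondria through the pyruvate dehydrogenase complex, which the PDK kinases inhibit. Hypoxia-inducible factor (HIF) is made of an oxygen-regulated alpha subunit and a stable partner. With oxygen present, the EGLN hydroxylases mark the alpha subunit for degradation, and when oxygen falls HIF raises glycolytic genes together with genes for angiogenesis, mitophagy and chromatin demethylation. Many of the same glycolytic genes are known targets of MYC, which binds the sequence CACGTG.

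The core letters of the HIF response element are ACGTG or the variant GCGTG, and the MYC sequence contains the first of these on both strands. RefSeq promoter windows (GRCh38.p14, the 250 bases before each listed start) were found for 32 of the 37 members and gave 62 windows, some of which overlap within a gene. BNIP3L, NDRG1, SLC16A1, SLC2A3 and VEGFA had none. The 5 stretches below are shown because they belong to members from different steps and with different responses to the drug: HK2 and GAPDH and PGK1, which were lower at every drug time, and PFKL and SLC16A3, which were higher at 72 h. Each lies on the plus strand, upstream of a RefSeq start and clear of GENCODE 29 exons: chr2:74834951-74835129 for HK2, chr12:6535158-6535213 for GAPDH, chrX:78104012-78104094 for PGK1, chr21:44299864-44299918 for PFKL and chr17:82228949-82229016 for SLC16A3. They were picked from windows that held a core match, so a match in each was fixed in advance. The HK2, GAPDH, PGK1 and SLC16A3 stretches lie inside the annotated gene, before a later start. Another HK2 window, chr2:74833877-74834108, overlapped exons and held 0 copies of CACGTG. Capitals mark the core letters on either strand, so that CACGT is a match read on the minus strand.
HK2: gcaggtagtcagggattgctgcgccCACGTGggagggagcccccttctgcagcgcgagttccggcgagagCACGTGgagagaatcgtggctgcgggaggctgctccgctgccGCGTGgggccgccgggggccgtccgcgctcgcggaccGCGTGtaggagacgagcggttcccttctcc
GAPDH: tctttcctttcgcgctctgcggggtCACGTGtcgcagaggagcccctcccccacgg
PGK1: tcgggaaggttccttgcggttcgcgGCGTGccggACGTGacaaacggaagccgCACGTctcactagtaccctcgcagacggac
PFKL: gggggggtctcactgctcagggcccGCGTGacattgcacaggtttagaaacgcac
SLC16A3: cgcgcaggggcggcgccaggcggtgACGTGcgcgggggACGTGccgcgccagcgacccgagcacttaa
Among member windows 37.1% held the letters ACGTG, 33.9% held the variant GCGTG and 12.9% held the MYC sequence CACGTG, each on either strand. Over all 35116 RefSeq windows of that length the shares were 18.5%, 32.2% and 6.34%. Counted by gene, either HIF core was found for 27 of 32 members and the MYC sequence for 8, against 47.4% and 7.73% of all 27305 genes. Members had more windows per gene (62 for 32 genes, against 35116 for 27305) and so more chances of a match, which the shares by gene do not take into account. Either HIF core was found for 6 of the 6 members with a window that were higher at 72 h of drug and for 17 of the 21 that were lower. The MYC sequence was found for 0 of those 6 and for 6 of those 21, which were ALDOA, ALDOC, ANKRD37, GAPDH, HK2 and LDHA. BNIP3L, NDRG1, SLC2A3 and VEGFA were also higher at 72 h but had no window, so the members that rose are only partly covered. SLC16A1, lower at 72 h, had none either. P4HA1, counted among the 6 that were higher, did not pass at 72 h with either other scaling. The matches describe letters in a window and were not tested against the expression changes.

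All libraries held plasma cell markers: 8 of 8 listed genes were at or above 1 TPM in every library, with a summed level from 3403 to 5996 TPM. The genes differed widely, with CD38 from 6.31 to 22.6 TPM and MZB1 from 705 to 2046 TPM over the libraries. Summed markers of T cells stayed between 0.436 and 4.84 TPM and those of myeloid cells between 0.122 and 5.75 TPM. The epithelial and stromal list summed to 1.33 to 22.3 TPM, most of it PECAM1, and the erythroid list to 3.74 to 28.9 TPM, most of it HBB. TPM keeps no depth, so the depth of each library is unknown, and the share of the mitochondrially encoded genes moved from a group mean of 13.7% to 18.5% of the listed TPM. The kit does not mark strand, and the counting is not described, so the values of members with overlapping genes on the other strand (PFKM with SENP1, PGM1 with ITGB3BP, ANKRD37 with UFSP2, TPI1 with SPSB2, SLC16A3 with CSNK1D) are uncertain, as are those of members with many processed copies. GENCODE 29 names 62 pseudogenes for GAPDH, 39 for BNIP3 and 13 for PGAM1, and SLC2A3 is nearly identical to SLC2A14.

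In untreated cells the members spanned more than 3 orders of magnitude in TPM, a scale already divided by gene length. GAPDH, which makes the first high-energy intermediate of the lower pathway, was highest at 3115 ± 37.5 TPM (SD, n = 3). LDHB and TPI1 followed at 1197 ± 12.3 and 1167 ± 10.3 TPM, and ENO1 and PGAM1 at 1002 ± 15.1 and 822 ± 9.16 TPM. LDHB and TPI1 differed by little, but their libraries did not overlap. The transporters were lower, as were 8 other HIF targets (BNIP3, BNIP3L, VEGFA, ADM, P4HA1, KDM3A, NDRG1 and ANKRD37). SLC16A1 averaged 84.8 ± 1.52 TPM, SLC2A1 22.5 ± 1.34 TPM, SLC2A3 8.37 ± 0.489 TPM and SLC16A3 8.70 ± 0.655 TPM, and the libraries of SLC2A3 and SLC16A3 overlapped. ADM, the gene of the vasodilator adrenomedullin, was the highest of these 8 HIF targets at 217 ± 1.8 TPM, and BNIP3 the lowest, at 1.85 ± 0.137 TPM.

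Most enzymes of glycolysis fell under pomalidomide within 24 h, fell further by 48 h and came part of the way back by 72 h. Genes of HIF and its targets moved in both directions. KDM3A, NDRG1, BNIP3L and EGLN1 rose at all 3 times, and VEGFA at 48 and 72 h. ANKRD37 fell, and ADM was higher at 24 h and lower at 48 and 72 h. BNIP3 passed at none of these times, and P4HA1 only at 72 h, where its call was not kept with other scalings. Of the 14 tested enzymes 13 were lower at 24 h, 13 at 48 h and 12 at 72 h. The summed level of the 17 enzyme genes (hexokinase to lactate dehydrogenase) was 9989.9 ± 68.5 TPM (SD over 3 libraries) without drug. It went to 7149.6 ± 138 TPM at 24 h, to 5320.4 ± 60.6 TPM at 48 h and to 6468 ± 163 TPM at 72 h. Among the 35 members tested, 8 were higher and 22 lower at 24 h, against 35.1% and 31.0% of all tested genes. At 48 h 8 were higher and 23 lower, against 43.8% and 34.8% of all genes. The count at 72 h was 10 higher and 22 lower, against 48.1% and 31.6%. The share of members that were lower was thus above the background at each time, and the share that were higher was below it. The list was chosen with earlier results of these data known, so these shares are a description and not a test. Libraries did not overlap between drug and untreated for 31, 34 and 33 of the 35 members, against 68.6%, 79.8% and 80.4% of all genes. The 3 drug contrasts share the same untreated libraries.

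A gene passed here at an adjusted p under 0.05 (limma on log2(TPM + 1), Benjamini-Hochberg over all 12559 genes), and fold changes are log2 values with their SE on that scale, which understates changes of low genes. The median fold change of the members was -0.39, -0.69 and -0.53 at 24, 48 and 72 h, beside 0.03, 0.08 and 0.15 for all genes. At 72 h the choice of scaling moved the median of all genes by -0.141 (median of ratios) or -0.101 (quantile), so every change against untreated cells, at all 3 times, is given below relative to the all-gene median of its contrast unless it is called unshifted. So given, the members' median was -0.42, -0.775 and -0.69. Calls and adjusted p-values rest on the unshifted values, and steps between drug times and knockdown contrasts are unshifted, as are values under another scaling or without a library.

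**Figure D1:**
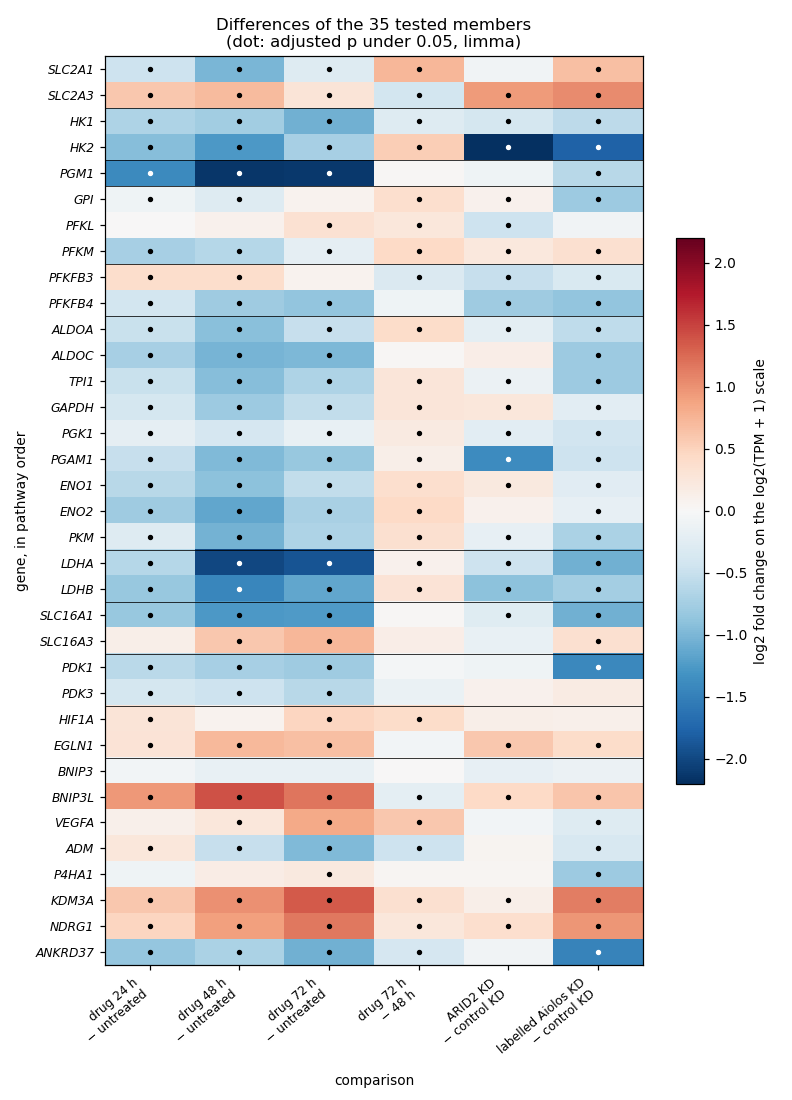
Log2 fold change (colour, unshifted) of the 35 tested members (rows, in pathway order) in each contrast (columns); a dot marks an adjusted p under 0.05. The enzyme rows are blue at all 3 drug times except PFKL and, at 72 h, GPI. GPI changed sign at 24 h with quantile normalization and at 72 h with median-of-ratios scaling. At the drug times KDM3A, NDRG1, BNIP3L and EGLN1 are red and ANKRD37 is blue, as is ADM at 48 and 72 h.

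Among glucose transporters, SLC2A1 (GLUT1, the widespread basal transporter) and SLC2A3 (GLUT3, a high-affinity transporter) moved in opposite directions. SLC2A1 read 23.99, 21.3 and 22.3 TPM untreated, 15.8, 16.8 and 16.1 at 24 h, 10.6, 10.8 and 10.7 at 48 h and 16.2, 19.3 and 19.6 at 72 h. The lowest libraries were those of 48 h, and no drug library reached the untreated level. The change of SLC2A1 was -0.48 ± 0.07 at 24 h, -1.10 ± 0.07 at 48 h and -0.44 ± 0.07 at 72 h. SLC2A3 read 8.92, 7.98 and 8.22 TPM untreated, 12.95, 13.5 and 12.8 at 24 h, 14.3, 14.01 and 14.3 at 48 h and 10.99, 10.2 and 10.1 at 72 h. Every drug library lay above every untreated one, with the smallest gap at 72 h. SLC2A3 rose by 0.56 ± 0.06 at 24 h and 0.61 ± 0.06 at 48 h and was 0.13 ± 0.06 above the all-gene median at 72 h (adjusted p = 0.0279 with median-of-ratios scaling).

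Both hexokinases, which trap glucose as glucose 6-phosphate, fell. HK2, the inducible and HIF-responsive form shown above with its promoter letters, read 48.7, 45.3 and 48.2 TPM untreated, 23.8, 24.4 and 24.97 at 24 h, 18.6, 21.3 and 17.5 at 48 h and 28.1, 29.1 and 27.3 at 72 h. The housekeeping form HK1 read 21.8, 20.1 and 20.8 TPM untreated, 12.8, 12.9 and 12.2 at 24 h, 12.1, 12.8 and 10.9 at 48 h and 8.64, 10.9 and 9.34 at 72 h. The untreated libraries of each gene lay above all its drug libraries, but from 48 to 72 h HK2 came back up while HK1 fell. HK2 changed by -0.96 ± 0.06, -1.35 ± 0.06 and -0.88 ± 0.06 at the 3 times, and HK1 by -0.71 ± 0.07, -0.85 ± 0.07 and -1.20 ± 0.07. From 48 to 72 h HK2 rose by 0.54 ± 0.06 (adjusted p = 1.17e-06) and HK1 changed by -0.29 ± 0.07 (adjusted p = 0.0028).

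PGM1, which links glucose 6-phosphate to glycogen, had the largest fall of any member (chr1:63593276-63660245 on GRCh38). It read 70.7, 72.4 and 74.9 TPM untreated, 27.9, 26.8 and 26.1 at 24 h, 16.8, 14.6 and 15.7 at 48 h and 16.2, 15.8 and 15.98 at 72 h. The 48 and 72 h libraries overlapped each other and lay far below the rest. The change was -1.43 ± 0.05 at 24 h, -2.23 ± 0.05 at 48 h (adjusted p = 1.45e-18) and -2.27 ± 0.05 at 72 h, and from 48 to 72 h PGM1 did not pass (0.03 ± 0.05).

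The next steps, to fructose bisphosphate, were mixed. GPI, the isomerase, read 239, 235 and 240.1 TPM untreated, 233, 215 and 223 at 24 h, 193, 190.5 and 201 at 48 h and 242, 254 and 256 at 72 h. Its libraries were lowest at 48 h and just above the untreated range at 72 h, where GPI did not pass. With quantile normalization it passed at 72 h (0.077, adjusted p = 0.0348). GPI changed by -0.37 ± 0.04 at 48 h. At 24 h its unshifted change of -0.09 ± 0.04 passed, but leaving out any of 4 single libraries (untreated replicate 1 or 3, 24 h replicate 2 or 3) took that away, with values from -0.116 to -0.0607 over all 6 omissions. Phosphofructokinase, the committed step, has 3 subunit genes, of which PFKP was near 0. PFKL, the liver-type subunit, ran from 118 to 127 TPM at 24 h against 119.8 to 123 TPM untreated and did not pass at 24 or 48 h. With quantile normalization PFKL passed at 48 h (0.213, adjusted p = 0.00167). At 72 h PFKL lay between 146 and 167 TPM, above every untreated library, a change of 0.18 ± 0.06. PFKM, the muscle-type subunit, fell from between 91.5 and 95.8 TPM untreated to between 55.01 and 58.97 TPM at 24 h (-0.75 ± 0.04). It was -0.72 ± 0.04 at 48 h and -0.35 ± 0.04 at 72 h, when its libraries read 77.4 to 86.3 TPM.

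The PFKFB enzymes make or break the activator of phosphofructokinase, fructose 2,6-bisphosphate. PFKFB3 read 12.4, 11.5 and 11.1 TPM untreated, 15.6, 15.8 and 15.3 at 24 h, 17.8, 15.2 and 13.99 at 48 h and 12.8, 11.4 and 12.8 at 72 h. It stood above the untreated range at 24 h (0.36 ± 0.08) and 48 h (0.30 ± 0.08), and overlapped it and did not pass at 72 h. PFKFB4 read 1.90, 2.63 and 2.01 TPM untreated, 1.31, 1.24 and 1.61 at 24 h, 0.809, 0.918 and 0.789 at 48 h and 0.61, 0.827 and 0.749 at 72 h. It was low throughout, with drug libraries below the untreated ones. PFKFB4 changed by -0.44 ± 0.13, -0.87 ± 0.13 and -1.03 ± 0.13; the first of these, -0.41 ± 0.13 unshifted, became -0.31 (adjusted p = 0.054) without untreated replicate 2.

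From aldolase to lactate dehydrogenase, all 11 tested genes fell at each of the 3 times, with a median of -0.53 at 24 h, -1.047 at 48 h and -0.84 at 72 h. ALDOA, the main aldolase, read 536, 526 and 534 TPM untreated, 381, 369 and 379.7 at 24 h, 279.6, 277 and 286 at 48 h and 360.0, 389 and 373 at 72 h. ALDOC, its brain-type relative, read 20.4, 18.8 and 17.1 TPM untreated, 11.7, 11.03 and 9.81 at 24 h, 7.94, 9.15 and 9.26 at 48 h and 10.1, 8.74 and 8.27 at 72 h. ALDOA was lowest at 48 h and higher again at 72 h, while the ALDOC libraries of 48 and 72 h overlapped. ALDOA changed by -0.53 ± 0.03, -1.0033 ± 0.03 and -0.66 ± 0.03, and ALDOC by -0.77 ± 0.08, -1.10 ± 0.08 and -1.13 ± 0.08.

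TPI1, which interconverts the triose phosphates, read 1173, 1172 and 1155 TPM untreated, 844, 826 and 817 at 24 h, 607, 594 and 617 at 48 h and 711, 741 and 746 at 72 h. GAPDH read 3100.5, 3087 and 3158 TPM untreated, 2447, 2276 and 2387 at 24 h, 1770.5, 1784 and 1796 at 48 h and 2068, 2184 and 2207 at 72 h. In both genes the 4 groups were fully separated, in the order untreated, 24 h, 72 h, 48 h. GAPDH, often used as a reference transcript, changed by -0.42 ± 0.03, -0.89 ± 0.03 (adjusted p = 1.91e-14) and -0.69 ± 0.03. TPI1 changed by -0.52 ± 0.03, -1.03 ± 0.03 and -0.82 ± 0.03. PGK1, the kinase that yields the first ATP of the lower pathway, moved least among these genes: it ran from 573 to 590.0 TPM untreated and from 449.95 to 459.9 TPM at 48 h, a change of -0.45 ± 0.02.

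PGAM1, the phosphoglycerate mutase, read 832, 816 and 817 TPM untreated, 597, 585 and 560.2 at 24 h, 418, 407 and 439 at 48 h and 446, 458 and 473 at 72 h. All drug libraries lay below the untreated ones, and the drop was nearly as deep at 72 h as at 48 h: -0.53 ± 0.03, -1.05 ± 0.03 and -0.99 ± 0.03. ENO2, the neuronal-type enolase, read 215, 223 and 233 TPM untreated, 126, 130.3 and 132 at 24 h, 95.5, 107 and 99.1 at 48 h and 131, 138 and 139 at 72 h. Its libraries were lowest at 48 h, and it changed by -0.82 ± 0.04, -1.23 ± 0.04 and -0.87 ± 0.04. The common enolase ENO1 ran from 985 to 1012 TPM untreated and from 525 to 549.9 TPM at 48 h, with changes of -0.65 ± 0.03, -0.99 ± 0.03 and -0.70 ± 0.03. PKM, the pyruvate kinase gene, read 313, 306 and 316 TPM untreated, 258, 252 and 258 at 24 h, 152, 144 and 158 at 48 h and 183, 198 and 200.1 at 72 h. Here the fall came mostly on the second day, with -0.31 ± 0.04 at 24 h and -1.12 ± 0.04 at 48 h, and -0.84 ± 0.04 at 72 h. The table gives 1 value per gene, so the M1 and M2 splice forms of PKM were not separated.

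**Figure D2:**
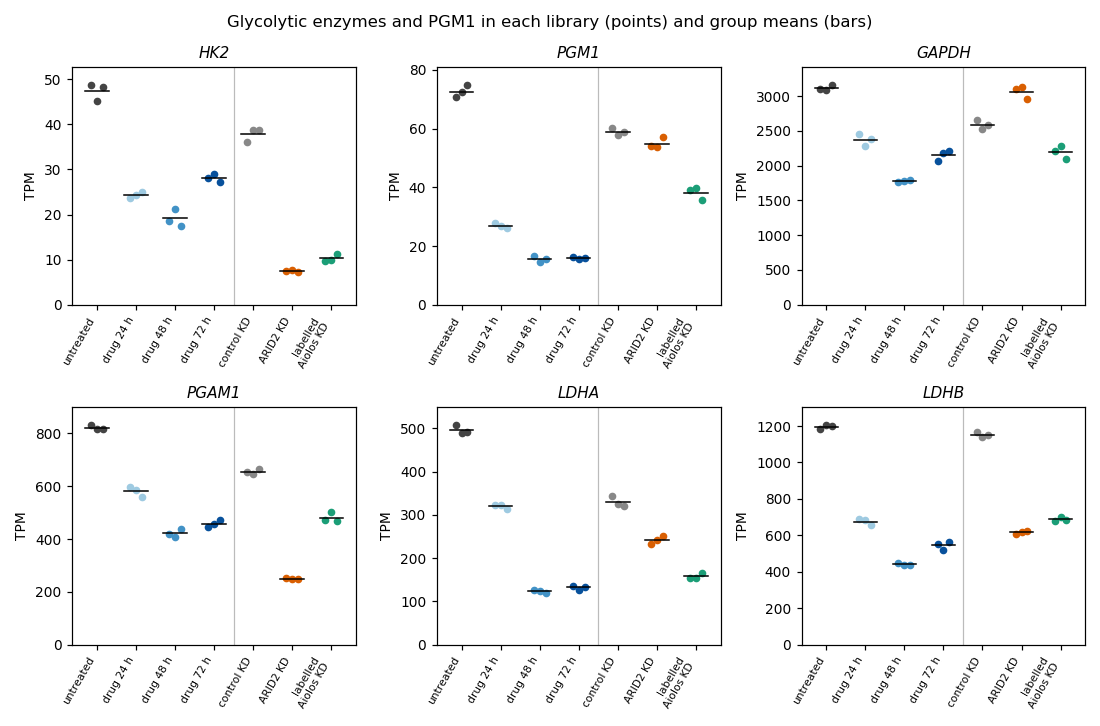
TPM of HK2, PGM1, GAPDH, PGAM1, LDHA and LDHB in each library (points) and group mean (bar) across the 7 groups; each panel has its own linear axis from 0. Within the drug series HK2, GAPDH and LDHB are lowest at 48 h and higher at 72 h, and HK2 and PGAM1 are lowest of all in the ARID2 knockdown.

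Lactate dehydrogenase and lactate export carried the deepest falls of the pathway's end. LDHA, whose subunit favours lactate formation (chr11:18394388-18408425), read 508, 489.7 and 490.2 TPM untreated, 323, 323 and 314 at 24 h, 127, 124 and 119 at 48 h and 136, 127 and 133 at 72 h. LDHB, whose subunit favours the reverse reaction (chr12:21635342-21757857), read 1183, 1206 and 1202 TPM untreated, 687, 683 and 655 at 24 h, 451, 437 and 435 at 48 h and 550.2, 522 and 563 at 72 h. Both genes had their untreated libraries far above all drug libraries; LDHB climbed again at 72 h and LDHA stayed low. LDHA changed by -0.66 ± 0.04 at 24 h, -2.08 ± 0.04 at 48 h (adjusted p = 7.77e-20) and -2.06 ± 0.04 at 72 h. LDHB changed by -0.86 ± 0.03, -1.52 ± 0.03 and -1.29 ± 0.03.

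The lactate exporters parted in the same way as the glucose transporters. SLC16A1 (MCT1) read 85.6, 85.8 and 83.1 TPM untreated, 43.7, 49.5 and 48.4 at 24 h, 37.3, 33.8 and 33.1 at 48 h and 35.8, 32.7 and 37.8 at 72 h. It changed by -0.86 ± 0.06, -1.35 ± 0.06 and -1.39 ± 0.06, with no overlap with untreated cells, and did not pass from 48 to 72 h (0.03 ± 0.06, adjusted p = 0.748). SLC16A3 (MCT4, the HIF-responsive exporter shown above) ran from 8.18 to 9.43 TPM untreated, overlapped that range at 24 h (8.12 to 11.2 TPM), and reached 12.3 to 14.99 TPM at 48 h and 14.4 to 16.3 TPM at 72 h. Its change passed at 48 h (0.51 ± 0.09) and at 72 h (0.58 ± 0.09).

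**Figure D3:**
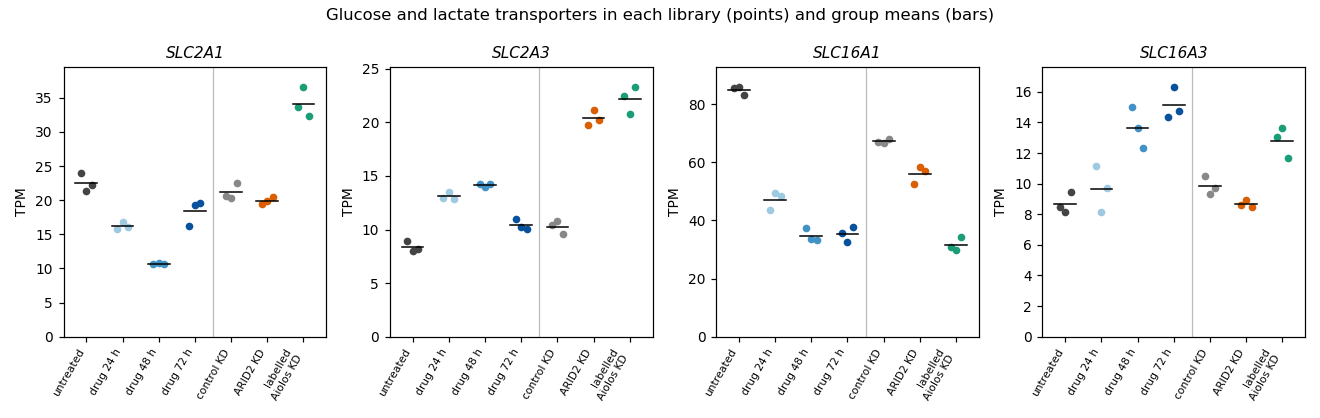
TPM of the glucose transporters (SLC2A1, SLC2A3) and lactate transporters (SLC16A1, SLC16A3) in each library (points) with the group mean (bar), on linear axes from 0. SLC2A1 and SLC16A1 are lower and SLC2A3 and SLC16A3 higher at 48 h of drug than in untreated cells.

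The PDK kinases, which switch off pyruvate dehydrogenase and are HIF targets in many cells, fell. PDK1 read 74.3, 76.04 and 76.3 TPM untreated, 47.97, 51.2 and 49.4 at 24 h, 45.01, 45.4 and 45.2 at 48 h and 45.5, 42.7 and 42.9 at 72 h. Its drug libraries sat close together, all below the untreated ones, with changes of -0.63 ± 0.04, -0.81 ± 0.04 and -0.93 ± 0.04. PDK3 fell from between 11.5 and 14.4 TPM untreated to between 6.59 and 9.14 TPM at 72 h (-0.77 ± 0.10).

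HIF1A, the alpha subunit of HIF, read 39.9, 41.04 and 40.6 TPM untreated, 45.6, 50.96 and 53.2 at 24 h, 43.9, 42.6 and 42.2 at 48 h and 58.95, 54.2 and 57.4 at 72 h. Its 24 and 72 h libraries lay above the untreated ones, and those of 48 h only just. HIF1A passed at 24 h (0.26 ± 0.07) and 72 h (0.32 ± 0.07) and not at 48 h (unshifted 0.08 ± 0.07); the transcript says nothing of the protein, which is the oxygen-regulated form. EGLN1, the main HIF hydroxylase and itself a HIF target, read 24.7, 25.6 and 24.5 TPM untreated, 30.2, 29.5 and 33.3 at 24 h, 42.3, 41.4 and 41.5 at 48 h and 43.3, 38.2 and 38.9 at 72 h. All its drug libraries were above the untreated ones, with changes of 0.27 ± 0.06, 0.64 ± 0.06 and 0.51 ± 0.06.

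Of the 8 other HIF targets, 4 rose and 1 fell at 24 h, 4 rose and 2 fell at 48 h, and 5 rose and 2 fell at 72 h. All tested genes gave 35.1% and 31.0%, 43.8% and 34.8%, and 48.1% and 31.6%, and with only 8 genes nothing particular to the HIF targets is read from the counts. KDM3A, a histone H3 lysine 9 demethylase, read 25.99, 23.02 and 24.8 TPM untreated, 36.4, 37.2 and 39.3 at 24 h, 50.6, 50.6 and 49.5 at 48 h and 64.1, 61.3 and 66.8 at 72 h. The 4 groups were fully separated and in the order of time, with changes of 0.56 ± 0.05, 0.92 ± 0.05 and 1.19 ± 0.05. NDRG1, a stress-responsive protein linked to differentiation, read 58.2, 55.9 and 58.4 TPM untreated, 80.8, 81.03 and 79.9 at 24 h, 111, 107 and 107 at 48 h and 124, 133 and 131 at 72 h. NDRG1 too rose at each step without overlap, by 0.45 ± 0.04, 0.82 ± 0.04 and 1.00 ± 0.04 against untreated cells. BNIP3L (NIX), a mitophagy receptor, read 22.7, 20.2 and 18.7 TPM untreated, 36.8, 42.05 and 42.7 at 24 h, 55.6, 54.96 and 56.02 at 48 h and 49.8, 46.3 and 46.5 at 72 h. It was highest at 48 h and a little lower at 72 h, with changes of 0.92 ± 0.07, 1.31 ± 0.07 and 1.02 ± 0.07. Its relative BNIP3 stayed between 1.25 and 2.14 TPM in untreated and drug libraries and passed at none of the 3 times. With quantile normalization BNIP3 did pass as lower at 48 h (-0.494, adjusted p = 0.00207) and 72 h (-0.414, adjusted p = 0.0076).

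VEGFA, the angiogenic growth factor, ran from 13.5 to 14.02 TPM untreated, from 15.4 to 18.2 TPM at 48 h (0.16 ± 0.06) and from 24.3 to 26.2 TPM at 72 h (0.68 ± 0.06). ADM went both ways: it ran from 215 to 218 TPM untreated, rose to between 254 and 259 TPM at 24 h (0.21 ± 0.05), and fell to between 107 and 116 TPM at 72 h (-1.12 ± 0.05). ANKRD37, a small HIF-induced ankyrin protein, read 23.7, 23.6 and 20.01 TPM untreated, 10.5, 15.8 and 10.1 at 24 h, 14.8, 10.99 and 15.1 at 48 h and 9.39, 11.4 and 9.90 at 72 h. All drug libraries were below the untreated ones, with changes of -0.89 ± 0.13, -0.78 ± 0.13 and -1.22 ± 0.13. P4HA1, a collagen prolyl hydroxylase, read 34.4, 31.9 and 35.2 TPM untreated, 29.5, 31.1 and 34.6 at 24 h, 40.5, 35.5 and 38.1 at 48 h and 43.9, 36.9 and 37.5 at 72 h. Its libraries at 72 h lay above the untreated ones by a narrow margin, and the unshifted change of 0.21 ± 0.08 (adjusted p = 0.0233) was not kept: it was 0.058 with median-of-ratios scaling, 0.106 with quantile normalization, 0.17 without untreated replicate 2 and 0.133 without 72 h replicate 1, none of which passed.

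**Figure D4:**
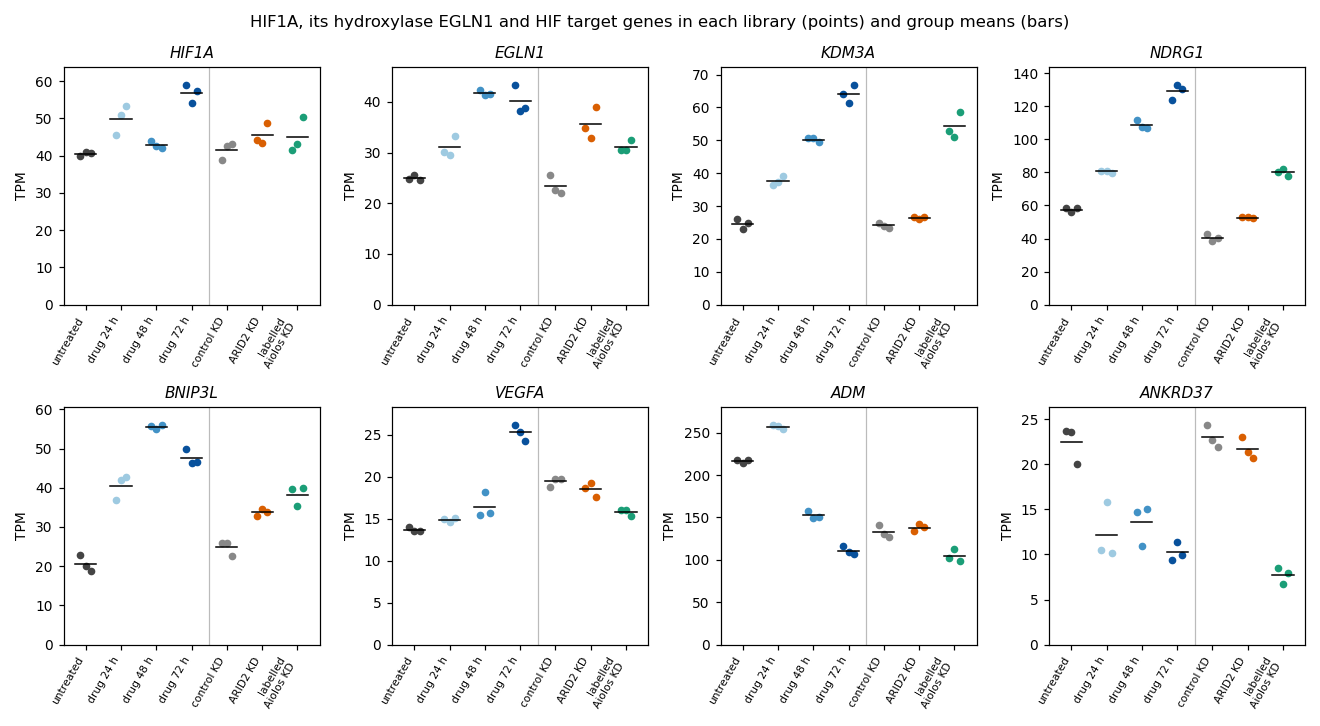
TPM of HIF1A, EGLN1 and HIF target genes in each library (points) with the group mean (bar), on linear axes from 0. KDM3A and NDRG1 climb from untreated to 72 h of drug, while ADM and ANKRD37 end below the untreated libraries.

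The third day of drug differed from the second. From 24 to 48 h 6 members rose and 20 fell, against 32.1% and 26.1% of all genes. From 48 to 72 h 19 rose and 6 fell, against 31.6% and 16.5% of all genes, and 16 rose with either other scaling. Of the 14 tested glycolytic enzymes, 12 rose and 1 (HK1) fell on the third day, with a median of 0.31 beside 0.06 for all genes. SLC2A1 rose by 0.73 ± 0.07 and VEGFA by 0.60 ± 0.06. The rise of LDHA over that day (0.10 ± 0.04, adjusted p = 0.0365) was not kept: it was 0.0113 with median-of-ratios scaling and -0.0206 with quantile normalization, and it failed to pass without any 1 of 4 libraries (48 h replicate 2 or 3, 72 h replicate 1 or 3). The rises of PGAM1 and PFKL on the third day did not pass with either other scaling (0.035 and 0.0198 for PGAM1, 0.153 and 0.116 for PFKL, median of ratios first). The fall of ANKRD37 on that day did not pass without 48 h replicate 1 or 3 or 72 h replicate 1 or 3 (-0.352 to -0.296). On the second day, the calls of PFKFB4 (-0.309) and HIF1A (-0.165) were lost without 24 h replicate 3, that of PDK1 (-0.106) without 24 h replicate 2, and that of P4HA1 without 24 h replicate 1 (0.206) or 48 h replicate 1 (0.211). Both steps share the 48 h libraries.

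ARID2 knockdown changed the members unevenly, with the deepest falls in HK2 and PGAM1. Of the 35 tested, 9 were higher and 13 lower than in the control knockdown, against 33.1% and 29.2% of all genes. Libraries did not overlap for 28 of the 35, against 70.6% of all genes. The members' median was -0.08, beside 0.02 for all genes, and the shares called were not far from the background. Of the 14 tested enzymes 4 were higher and 8 lower; 1 of the 8, TPI1 (-0.13 ± 0.03), became 0.0562 with quantile normalization. Its libraries read 945, 946 and 902 TPM.

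HK2 read 35.99, 38.7 and 38.8 TPM in the control knockdown against 7.51, 7.61 and 7.37 TPM in the ARID2 knockdown. The ARID2 knockdown libraries lay below every other library of the series for this gene, at a change of -2.19 ± 0.06 (adjusted p = 3.4e-16). PGAM1 read 656, 646 and 664 TPM in the control knockdown against 252, 249 and 249 TPM in the ARID2 knockdown, below every other group, a change of -1.39 ± 0.03 (adjusted p = 1.76e-17). LDHB read 1168, 1139 and 1152 TPM and 607, 617 and 623 TPM in these groups, and LDHA 344, 324 and 321 TPM and 232, 241 and 249.97 TPM. Both dehydrogenases fell without overlap, with -0.90 ± 0.03 for LDHB and -0.45 ± 0.04 for LDHA. HK1 read 19.8, 18.6 and 18.8 TPM in the control knockdown against 13.2, 14.5 and 15.4 TPM in the ARID2 knockdown, a change of -0.39 ± 0.07. PFKFB4 read 2.29, 2.23 and 2.40 TPM and 1.39, 0.718 and 0.717 TPM, lower in all 3 libraries (-0.79 ± 0.13), and PFKL (-0.45 ± 0.06) and SLC16A1 (-0.26 ± 0.06) also fell. PFKFB3 read 8.41, 9.26 and 9.56 TPM against 6.41, 6.08 and 5.84 TPM, again without overlap (-0.50 ± 0.08).

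Some genes of the same pathway moved the other way. GAPDH read 2652, 2519.9 and 2578 TPM in the control knockdown against 3095, 3135 and 2950.3 TPM in the ARID2 knockdown, a rise of 0.24 ± 0.03. ENO1 (0.22 ± 0.03) and PFKM (0.24 ± 0.04) rose as well, and so did GPI by 0.09 ± 0.04, which no longer passed with median-of-ratios scaling (0.0638) or without any 1 of control replicates 2 and 3 and ARID2 replicates 1 and 2 (lowest value 0.076). SLC2A3 read 10.4, 10.8 and 9.58 TPM in the control knockdown against 19.8, 21.2 and 20.3 TPM in the ARID2 knockdown, higher in every library (0.93 ± 0.06). EGLN1 read 25.5, 22.6 and 21.96 TPM and 34.9, 32.9 and 38.9 TPM, a rise of 0.59 ± 0.06 without overlap. Of the 8 other HIF targets 3 rose, 0 fell and 5 did not pass, and 3 of 8 is near the 33.1% of all genes that were higher. BNIP3L changed by 0.43 ± 0.07, NDRG1 by 0.37 ± 0.04 and KDM3A by 0.13 ± 0.05 (adjusted p = 0.0365), the last not passing with median-of-ratios scaling (0.101) or without any 1 of control replicates 2 and 3 and ARID2 replicates 1 and 3 (0.111 to 0.127). PGM1, the member that fell most with the drug, changed by -0.10 ± 0.05 (adjusted p = 0.0884), from 60.3, 57.8 and 58.8 TPM to 53.9, 53.7 and 57.2 TPM. With median-of-ratios scaling PGM1 passed (-0.131, adjusted p = 0.035).

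The enzymes were lower nearly throughout in the libraries with the Aiolos label. Of the 35 members 8 were higher and 23 lower than in the control knockdown, against 37.2% and 30.7% of all genes, and libraries did not overlap for 32 of them, against 70.6%. Of the 14 enzymes tested 1 (PFKM, 0.35 ± 0.04) was higher and 12 were lower, and all 11 genes from ALDOA to LDHB were lower. Among these, ENO2 did not pass with quantile normalization (-0.0979). The members' median was -0.35, beside 0.05 for all genes. This contrast and that of the ARID2 knockdown share the control knockdown libraries.

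HK2 read 9.60, 10.01 and 11.3 TPM in these libraries, below all control knockdown libraries, a change of -1.78 ± 0.06 (adjusted p = 3.66e-15). HK1 read 12.1, 12.6 and 12.6 TPM (-0.58 ± 0.07) and GPI 128, 127 and 119 TPM beside 221, 215 and 218 in the control knockdown (-0.80 ± 0.04). GPI had no lower values in any other group. Among the later enzymes, ALDOA read 464, 458 and 458 TPM in the control knockdown and 312, 329 and 295 in the labelled libraries (-0.56 ± 0.03). ALDOC read 18.2, 17.3 and 16.5 TPM and 9.87, 9.02 and 9.64 TPM (-0.80 ± 0.08). TPI1 read 1032, 1012 and 1006 TPM and 575, 609.6 and 573 TPM (-0.79 ± 0.03). In all of these every labelled library was below every control library. PKM read 245, 235 and 234 TPM and 147, 152 and 141 TPM (-0.70 ± 0.04), and PGAM1 472, 502 and 467 TPM (-0.45 ± 0.03). LDHA read 154, 154 and 165 TPM (-1.06 ± 0.04, adjusted p = 3.53e-15) and LDHB 681, 699 and 686 TPM (-0.74 ± 0.03), and GAPDH 2207, 2284 and 2098 TPM (-0.23 ± 0.03). None of these 5 genes overlapped the control knockdown.

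Transport and pyruvate control shifted too. SLC2A1 read 20.6, 20.4 and 22.5 TPM in the control knockdown and 33.6, 36.5 and 32.4 TPM in the labelled libraries, the highest of the series (0.67 ± 0.07), and SLC2A3 22.5, 20.8 and 23.3 TPM (1.04 ± 0.06). SLC16A1 read 67.04, 66.5 and 68.03 TPM and 30.8, 29.9 and 34.4 TPM (-1.06 ± 0.06), and PDK1 85.03, 84.4 and 83.3 TPM and 31.4, 28.6 and 33.5 TPM (-1.41 ± 0.04). Both glucose transporters rose, and MCT1 and PDK1 fell, with no overlap. PGM1 read 60.3, 57.8 and 58.8 TPM and 39.04, 39.8 and 35.6 TPM (-0.62 ± 0.05), and PFKFB4 0.758, 0.77 and 0.939 TPM (-0.86 ± 0.13).

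The HIF targets were split in the labelled libraries: of 8 tested 3 rose, 4 fell and 1 did not pass, against 37.2% and 30.7% of all genes, so the count that rose is that of the background. KDM3A read 24.98, 24.00 and 23.5 TPM in the control knockdown and 52.9, 51.01 and 58.7 TPM in the labelled libraries (1.13 ± 0.05), NDRG1 42.6, 38.8 and 40.2 TPM and 80.5, 82.2 and 77.5 TPM (0.97 ± 0.04), and BNIP3L 25.9, 25.9 and 22.6 TPM and 39.6, 35.3 and 39.9 TPM (0.61 ± 0.07). These 3, with EGLN1 at 30.4, 30.4 and 32.4 TPM (0.40 ± 0.06), were higher in every library. ANKRD37 read 24.3, 22.7 and 21.9 TPM and 8.55, 6.68 and 7.95 TPM (-1.46 ± 0.13), and P4HA1 44.1, 44.1 and 42.6 TPM and 23.1, 22.4 and 28.9 TPM (-0.80 ± 0.08). Those 2 were lower in every library, as were VEGFA (-0.29 ± 0.06) and ADM (-0.35 ± 0.05). HIF1A read 38.96, 42.6 and 43.1 TPM in the control knockdown, 44.3, 43.3 and 48.8 TPM in the ARID2 knockdown and 41.4, 43.04 and 50.3 TPM in the labelled libraries; these overlapped in the last case, and HIF1A passed in neither contrast.

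The control knockdown itself differed from untreated cells, with 6 members higher and 15 lower, against 17.3% and 28.4% of all genes. The summed level of the 17 enzyme genes was 8434 ± 152 TPM here, 7730.5 ± 180 TPM for ARID2 and 6172 ± 202 TPM in the labelled libraries (SD, n = 3). LDHA was lower in the control knockdown than in untreated cells (-0.59 ± 0.04), as were NDRG1 (-0.49 ± 0.04) and ADM (-0.70 ± 0.05). The rise of PDK3 here (0.28 ± 0.10) was lost without untreated replicate 2 (0.198) or 3 (0.297) or control replicate 2 (0.243) or 3 (0.286), and the fall of GPI with median-of-ratios scaling (-0.0875) or quantile normalization (-0.0779). Virus, hairpin and time cannot be told apart in this contrast.

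To set the drug beside the knockdowns, the effect of 72 h of pomalidomide against untreated cells was compared with each knockdown effect by an interaction term. For the ARID2 knockdown, 10 of 35 members had a higher effect under the drug and 18 a lower one, against 40.4% and 29.1% of all genes. The all-gene median of this difference was 0.109 and scaling moved it by up to -0.115, so differences between effects are given relative to the all-gene median of the difference, here and for the labelled libraries. PGM1 differed most, at -2.13 ± 0.07. Unshifted, its effect was -2.12 ± 0.05 for the drug and -0.10 ± 0.05 for the knockdown, a difference of -2.02 ± 0.07. LDHA (-1.56 ± 0.05) also fell more under the drug, and HK2 (1.35 ± 0.09) and PGAM1 (0.44 ± 0.05) fell more under the knockdown. KDM3A rose more under the drug (1.11 ± 0.07).

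For the libraries labelled Aiolos knockdown, 15 members had a higher effect under the drug and 13 a lower one, against 35.0% and 28.0% of all genes. The count of higher effects was 10 with median-of-ratios scaling, where TPI1, SLC16A3, EGLN1, KDM3A and NDRG1 were no longer called. EGLN1 (0.26 ± 0.09 unshifted) was also lost without 72 h replicate 1 (0.208) or control replicate 1 (0.201), and KDM3A (0.21 ± 0.07 unshifted) with quantile normalization (0.134) or without untreated replicate 2 (0.168), 72 h replicate 3 (0.183) or labelled replicate 2 (0.172). Relative to the all-gene median, PGM1 (-1.57 ± 0.07), LDHA (-0.91 ± 0.05) and SLC2A1 (-1.02 ± 0.09) had a lower effect under the drug, and P4HA1 (0.94 ± 0.12), HK2 (0.98 ± 0.09) and VEGFA (1.06 ± 0.08) a higher one.

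Isozyme make-up, read as the share of one gene's TPM among its paralogs in a library, does not move with library scaling. LDHB held 70.7% ± 0.638 of the LDHA and LDHB transcripts without drug (SD, n = 3). The share was 67.9% ± 0.245 after 24 h, 78.2% ± 0.365 after 48 h and 80.5% ± 0.360 after 72 h. In the knockdowns it was 77.8% ± 0.464 in the control, 71.9% ± 0.503 with ARID2 and 81.3% ± 0.691 in the labelled libraries. The share therefore dropped before it rose under the drug, and went down with one knockdown and up in the other. HK2 held 69.4% ± 0.396 of the hexokinase pair in untreated cells, 65.9% ± 1.09 at 24 h, 61.5% ± 0.879 at 48 h and 74.6% ± 1.86 at 72 h, so that it dropped before it rose. It held 66.5% ± 1.70 in the control knockdown, 34.4% ± 1.91 in the ARID2 knockdown and 45.3% ± 1.76 in the labelled libraries. PFKM held 43.8% ± 0.576 of the phosphofructokinase subunits in untreated cells and 31.8% ± 0.0393 at 24 h, and 44.2% ± 0.280 in the control knockdown against 56.1% ± 0.441 in the ARID2 knockdown. In each of these comparisons with its own control the 3 libraries of one group lay outside the range of the other, with an exact two-sided permutation p of 0.1, the smallest that 3 against 3 allows, so that no such share can pass 0.05.

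**Figure D5:**
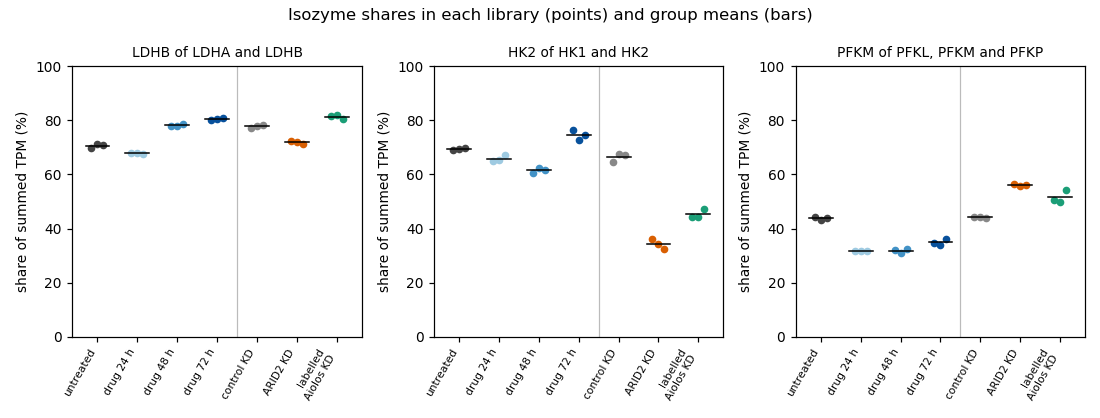
Share (%) of LDHB among lactate dehydrogenases, HK2 among hexokinases and PFKM among phosphofructokinases, per library (points) with the group mean (bar). The HK2 share is lowest in the ARID2 knockdown.

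MYC, known as an activator of many glycolytic genes, moved in the same libraries. It read 468, 475 and 495 TPM untreated, 277, 269 and 263 at 24 h, 284, 281 and 295 at 48 h and 299, 309 and 307 at 72 h. Its change was -0.86 ± 0.03, -0.83 ± 0.03 and -0.80 ± 0.03 with the drug, -0.90 ± 0.03 with the ARID2 knockdown and -0.23 ± 0.03 in the labelled libraries, each relative to the all-gene median of its contrast. In the control knockdown against untreated cells it was -0.32 ± 0.03 on the same footing. From 24 to 48 h MYC rose slightly (0.09 ± 0.03, unshifted), a step in which 11 of the 14 tested enzymes fell. The part of MYC in the fall of the enzymes was not tested.

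Other genes of the same pathways, from lists of textbook members, were read at 72 h against 48.1% higher and 31.6% lower of all genes. In the pentose phosphate pathway, which draws glucose 6-phosphate off for NADPH and ribose, 2 of 8 genes rose and 6 fell. PGD, which makes NADPH, went from 157 to 74.4 TPM (-1.22 ± 0.04), and RPIA, the ribose 5-phosphate isomerase, from 53.7 to 19.6 TPM (-1.57 ± 0.08). H6PD, the enzyme of this route inside the endoplasmic reticulum, rose from 8.24 to 25.7 TPM (1.38 ± 0.09). Of 11 genes for pyruvate entry into mitochondria 3 rose and 7 fell, among them MPC2, a pyruvate carrier subunit (-1.35 ± 0.05), and the pyruvate dehydrogenase subunits DLAT (-1.08 ± 0.07) and DLD (-0.89 ± 0.05). In a list of 12 other glycolytic isozymes, regulators and related enzymes outside glycolysis itself, 6 rose and 4 fell. GPD1, the cytosolic glycerol 3-phosphate dehydrogenase, rose from 1.18 to 7.16 TPM (1.75 ± 0.09), and PGM3 (0.54 ± 0.05) and ENO3 (0.44 ± 0.10) rose too. Of 12 other transporters 5 rose and 2 fell, with SLC2A11 (0.95 ± 0.04), SLC2A6 (0.80 ± 0.11) and SLC37A4 (0.42 ± 0.04) higher.

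HIF pathway genes outside the member list changed in both directions. Of 13 other components 7 rose and 4 fell. EPAS1, the HIF-2 alpha subunit, rose from 9.27 to 37.7 TPM (1.76 ± 0.07), and CITED2, which competes with HIF for its coactivator, from 51.6 to 205 TPM (1.82 ± 0.05). The coactivator EP300 changed by 0.60 ± 0.05. Of 33 other HIF targets 17 rose and 10 fell, shares close to the background. HMOX1, the heme oxygenase, rose from 23.3 to 508 TPM (4.20 ± 0.12), while AK4, a mitochondrial adenylate kinase, fell from 6.93 to 1.01 TPM (-2.14 ± 0.13) and ERO1A, an oxidase of the endoplasmic reticulum, changed by -1.18 ± 0.06. Of 9 mitophagy receptors and partners of BNIP3 8 rose and 1 fell, with an unshifted median of 0.74 beside 0.15 for all genes. PINK1, the kinase that marks damaged mitochondria, rose from 21.9 to 69.2 TPM (1.46 ± 0.05), and BECN1 (0.85 ± 0.04) and OPTN (0.82 ± 0.04), an autophagy initiator and a cargo receptor, rose as well.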

How the data were processed

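mRNA of MM.1S cells was sequenced in 21 libraries (TruSeq RNA Sample Prep Kit v2, NovaSeq), per the labels' protocols. The authors deposited 1 table of TPM values with 17691 gene symbols. The build is hg38, per the submitters' processing notes; aligner, quantifier and annotation are each not given in the sources used. TPM keeps no depth, so no counting error can be given, and a TPM value is a share that can fall because other genes rose.

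Values were taken as log2(TPM + 1) after a filter of at least 1 TPM in at least 3 libraries. One limma 3.58.1 model (R 4.3.3, moderated with an expression trend) held the 7 group means and 10 contrasts; p-values were adjusted by Benjamini-Hochberg over 12559 genes, with 0.05 as the threshold. The procedure was tested on simulated data with independent libraries, which cannot show whether the spread within a group is technical. The members, the pathway lists and the tests were chosen with earlier results of these data known. Libraries were printed for members that passed with an absolute log2 fold change of at least 1 against untreated cells or 0.5 in a knockdown, and for GAPDH, LDHA, LDHB and HIF1A; other members are given by range. From each pathway list up to 3 passing genes with the largest change at 72 h and at least 5 TPM were named. Gene positions and overlaps come from GENCODE 29.

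Alternatives were another pseudocount (0.1), no filter, a filter of 5 TPM, median-of-ratios scaling, quantile normalization, a replicate block and leaving out each library in turn.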

Additional observations from a re-analysis of the deposited data

Results flagged for a closer look

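Some members passed in opposite directions in the drug and in a knockdown, and the difference between the effects passed as well (limma interaction term). Values here are log2 and are not set relative to the all-gene median. Between 72 h of drug and the ARID2 knockdown, PFKL differed by 0.782, being higher with the drug and lower with the knockdown. PFKM differed by -0.435, GAPDH by -0.777 and ENO1 by -0.762, each lower with the drug and higher with the knockdown. The knockdown effect is read against the control knockdown. Its mean was below untreated cells for GAPDH (2583 against 3115 TPM) and ENO1 (750 against 1002 TPM). With the ARID2 knockdown GAPDH and ENO1 averaged 3060 and 873 TPM, no higher than in untreated cells. PFKM averaged 104 TPM there, beside 94.3 TPM untreated.

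Between 72 h of drug and the libraries labelled Aiolos knockdown, SLC2A1 differed by -0.951 and PFKM by -0.552, both lower with the drug and higher in the labelled libraries. VEGFA differed by 1.12 and P4HA1 by 1.01, both higher with the drug and lower in the labelled libraries, although the drug effect on P4HA1 did not pass with other scalings. For both, the control knockdown mean was above untreated cells (VEGFA 19.4 against 13.7 TPM, P4HA1 43.6 against 33.8 TPM). In the labelled libraries VEGFA averaged 15.8 TPM, above untreated cells, and P4HA1 24.8 TPM, below them.

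Within the drug series ADM was above untreated cells at 24 h and below them at 48 h, a difference of -0.747 between the 2 times.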

How the results depend on the processing

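The counts of members called moved by no more than 1.5 times under the alternatives tried. Depth is unknown, so nothing can be said of counting error. None of the 54 member values that changed outside the leave-one-out settings passed with the other sign. Same-numbered libraries did not deviate together (r from -0.125 to 0.11 over 63 pairs), so the samples share only a number; the replicate block changed 1 member call, BNIP3 in the control knockdown against untreated cells (-0.305, adjusted p = 0.0469).

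With median-of-ratios scaling the value became -0.0388 for PFKL at 24 h, -0.0807 for GPI and -0.0709 for PFKFB3 at 72 h, -0.0154 for PFKFB3 from 24 to 48 h, and 0.0107 for KDM3A in the control knockdown against untreated cells. From 48 to 72 h it became -0.0575 for PGM1, -0.0451 for ALDOC, -0.0591 for SLC16A1, -0.0454 for BNIP3 and -0.039 for P4HA1. With quantile normalization it became 0.00476 for GPI at 24 h, -0.000409 for PFKFB3 at 72 h, -0.0206 for LDHA, -0.0622 for SLC16A1 and -0.0493 for P4HA1 from 48 to 72 h, 0.0562 for TPI1 with the ARID2 knockdown and 0.0183 for KDM3A in the control knockdown.

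Leaving out 1 library at a time gave -0.0187 to 0.0307 for PFKL and -0.151 to 0.0678 for BNIP3 at 24 h, and -0.0871 to 0.0769 for PFKFB3 from 24 to 48 h. From 48 to 72 h it gave -0.0212 to 0.0715 for PGM1, -0.0396 to 0.089 for ALDOC, -0.0196 to 0.0815 for SLC16A1, -0.076 to 0.111 for BNIP3 and -0.0306 to 0.092 for P4HA1. It gave -0.126 to 0.0138 for PFKL in the libraries labelled Aiolos knockdown, and -0.07 to 0.014 for KDM3A and -0.0412 to 0.0744 for ANKRD37 in the control knockdown. The cause of these reversals was not tested.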
